A study of Homo sapiens with 4 samples.

Results

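Serum response factor (SRF) and 9 genes of the actin cytoskeleton were followed between 4 h and 8 h of exposure to merbarone, a catalytic inhibitor of DNA topoisomerase II. The 10 genes were taken by symbol from the 23459 genes that each library lists by NCBI Gene identifier. They were SRF, ACTB, ACTG1, VCL, TPM1, TPM4, MYL9, TAGLN, CNN1 and FLNA, and all 10 passed the filter on low counts that 12559 genes passed. The cells were wild-type hTERT RPE-1, a human line of the retinal pigment epithelium immortalized with telomerase. They were held for 48 h in medium with 0.1% serum and then exposed to 200 μM merbarone for 4 h (2 libraries) or 8 h (2 libraries), each pair being biological replicates. Both groups were treated, and untreated cells and earlier times were not analysed here, so each difference is between 2 times under the drug and cannot be told apart from longer serum deprivation.

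SRF is a transcription factor that binds a short DNA element called the CArG box. Its partners are the myocardin-related factors MRTFA and MRTFB, which are held in the cytoplasm by monomeric actin, and the ternary complex factors of the ELK family, which respond to MAP kinase signalling. When actin polymerises, MRTF is released to the nucleus and drives genes for actin itself and for proteins that bind, crosslink and anchor filaments. SRF is among its own targets. Serum is a classical inducer of this pathway through RhoA, and the cells here were kept in low serum.

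Depth ranged from 8064450 to 10324697 counts on genes per library. Counts were scaled by TMM, a factor that corrects for library composition, and are given as normalized counts at a common depth of 9595197 counts. Of 12 marker genes of pigment epithelium, several were at or near 0, with RPE65 at 2 to 7 counts per library, RLBP1 at 0 to 2, and TYR and CRX at 0 in all 4 libraries. The filter was passed by 5 of the 12, and MITF had a mean normalized count of 757 at 4 h and 859 at 8 h, OTX2 159 and 181, KRT8 3485 and 3557, and KRT18 3366 and 2370. The summed normalized count of the 12 was 7550 to 8019 at 4 h and 6789 to 7199 at 8 h. The keratin genes KRT8 and KRT18 held most of that sum, and of the 5 only KRT18 had a lower mean at 8 h. Since TAGLN and CNN1 are also markers of smooth muscle, 8 other genes of that lineage were read. MYH11 had at most 5 counts and DES at most 1, whereas LMOD1 had a mean normalized count of 1053 at 4 h and 687 at 8 h. The summed level of these 8 genes was 1441 to 1523 at 4 h and 1023 to 1138 at 8 h, and its part in the results was not tested. LMOD1 held most of that sum. At 4 h and 8 h the means were 303 and 266 for SYNM, 70.8 and 77.1 for ACTG2, and 52.3 and 44.9 for SYNPO2.

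The CArG box was searched because it is the element through which SRF acts. It is CC, 6 bases that are each A or T, and GG, and it reads as a CArG box on both strands. RefSeq promoter windows (GRCh38.p14, 250 bases before to 50 after the transcription start) were held for 7 of the 10 genes, in 10 windows. ACTB, MYL9 and TAGLN were not searched here. An exact CArG box was found in 4 windows, of 4 genes, whereas 1.29% of all 35116 windows hold one. SRF had 2 in the first of its 2 windows, with first bases at -30 and -10 from the start. ACTG1 and FLNA each had 1 at -94, and TPM4 had 1 at -173 in the first of its 3 windows. With 1 mismatch allowed, 6 of the 10 windows and 18.9% of all windows had a match. No exact match stood in the windows of VCL, TPM1 and CNN1, which says only that these letters are absent from those windows. The 250 bases before the start are printed for the 4 genes with a match and for VCL, the gene with the largest change in level below, with CArG boxes in capitals.
SRF (chr6:43171019-43171268, plus strand): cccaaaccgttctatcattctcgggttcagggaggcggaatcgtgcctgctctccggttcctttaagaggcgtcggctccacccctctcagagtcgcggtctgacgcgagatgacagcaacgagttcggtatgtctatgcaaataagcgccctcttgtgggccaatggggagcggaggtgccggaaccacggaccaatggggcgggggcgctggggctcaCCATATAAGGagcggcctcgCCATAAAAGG
ACTG1 (chr17:81512800-81513049, minus strand): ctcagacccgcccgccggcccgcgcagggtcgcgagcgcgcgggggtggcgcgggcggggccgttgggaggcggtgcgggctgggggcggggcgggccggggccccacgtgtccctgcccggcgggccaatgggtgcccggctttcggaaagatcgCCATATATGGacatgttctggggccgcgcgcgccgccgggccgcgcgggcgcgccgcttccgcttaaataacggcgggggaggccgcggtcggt
TPM4 (chr19:16067288-16067537, plus strand): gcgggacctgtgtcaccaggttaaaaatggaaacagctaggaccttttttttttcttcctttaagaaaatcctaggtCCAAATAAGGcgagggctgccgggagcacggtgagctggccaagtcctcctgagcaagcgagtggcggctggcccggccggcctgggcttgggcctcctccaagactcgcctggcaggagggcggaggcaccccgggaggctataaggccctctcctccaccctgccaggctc
FLNA (chrX:154374635-154374884, minus strand): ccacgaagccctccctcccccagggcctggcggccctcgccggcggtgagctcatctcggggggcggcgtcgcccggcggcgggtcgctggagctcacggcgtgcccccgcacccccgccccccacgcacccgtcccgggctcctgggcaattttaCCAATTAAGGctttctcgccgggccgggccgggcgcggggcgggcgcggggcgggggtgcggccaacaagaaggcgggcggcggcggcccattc
VCL (chr10:73997866-73998115, plus strand): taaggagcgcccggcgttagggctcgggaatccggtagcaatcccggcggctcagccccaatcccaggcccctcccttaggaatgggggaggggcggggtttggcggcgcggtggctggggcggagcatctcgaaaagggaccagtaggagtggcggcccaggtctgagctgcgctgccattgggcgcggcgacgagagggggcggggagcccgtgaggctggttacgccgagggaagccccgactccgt

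The question that the times answer is how the genes changed as exposure went from 4 h to 8 h. SRF rose, VCL fell to 0.492 of its 4 h level, and the actin and tropomyosin genes ACTB and TPM1 fell by smaller amounts. FLNA and CNN1 were also called higher. The calls of FLNA, CNN1 and TPM1 were lost in several alternative analyses and that of ACTB in 1, and ACTG1, TPM4, MYL9 and TAGLN did not pass the test. A gene was called when its adjusted p was below 0.05 by edgeR's quasi-likelihood test over all 12559 genes. Of the 10 genes, 3 were called higher and 3 lower, beside 20.0% of all genes tested called higher and 18.9% lower (38.8% in either direction). At the study's stricter threshold, which adds an absolute log2 fold change above 1, only VCL of the 10 was called, beside 3.88% of all genes called lower and 1.43% higher. The median log2 fold change was 0.050 over the 10 genes and -0.0024 over all genes. Among the 2512 most abundant genes, which include 9 of the 10, 39.3% were higher and 14.8% lower, with a median of 0.12. In bulk RNA a lower level per cell and fewer cells that express a gene cannot be told apart.

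**Figure D1:**
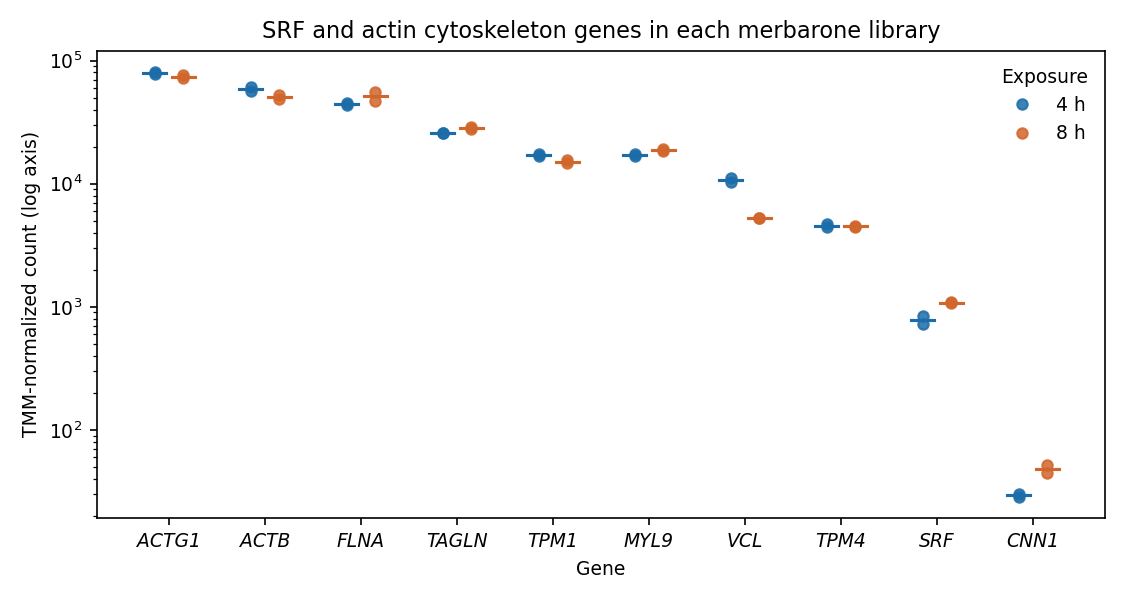
TMM-normalized counts (log axis) of the 10 genes in the 4 h (blue) and 8 h (orange) libraries. Points are libraries and short lines are means of 2. VCL drops from 10409 and 11023 to 5249 and 5307, and SRF is higher in both 8 h libraries.

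The 2 times did not overlap for 9 of the 10 genes, with 5 above and 4 below at 8 h. Over all genes, 34.8% lay wholly above and 34.9% wholly below, so that non-overlap of 2 libraries against 2 was common. The exception was TPM4.

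SRF (chromosome 6, 43139007 to 43149244, plus strand, hg19) is the transcription factor of the group. Its normalized count was 844 and 720 at 4 h against 1086 and 1066 at 8 h. Both 8 h libraries were above both 4 h libraries, and the 4 h libraries differed more from each other than the 8 h libraries did. The mean rose 1.38-fold, from 782 ± 87.5 to 1076 ± 14.2 (SD, n = 2 each), with a log2 fold change of 0.46 (standard error 0.091, edgeR adjusted p = 0.000513). In all 12 alternative analyses the change was in this direction and passed, with a log2 fold change between 0.35 and 0.57.

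VCL (chromosome 10, 75754951 to 75881121, plus strand) encodes vinculin, which links integrins and cadherins to actin filaments at adhesion sites. Its normalized count was 10409 and 11023 at 4 h against 5249 and 5307 at 8 h. Each 8 h library thus held far less than either 4 h library, and the 8 h libraries were nearly equal. The mean went from 10716 ± 434 to 5278 ± 41.0 (SD, n = 2 each), a log2 fold change of -1.02 (95% interval -1.17 to -0.88, edgeR adjusted p = 1.73e-09). Only 4.05% of all genes had a log2 fold change as low or lower. All 12 alternatives gave a fall that passed, from -1.19 to -0.98 on the log2 scale. VCL spans 126 kb of the genome and was the only one of the 10 over 100 kb. Of the 1538 tested genes that span 100 to 200 kb, 17.4% were lower and 22.2% higher, beside 18.9% and 20.0% of all genes. Whether span bears on the fall of VCL was not tested. The gene AP3M1 overlaps VCL on the opposite strand without sharing exon bases, and fell too (log2 fold change -0.49, edgeR adjusted p = 0.000184).

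FLNA (chromosome X, 153576892 to 153603002, minus strand) encodes filamin A, which crosslinks filaments into networks. It had 45254 and 43640 normalized counts at 4 h against 47212 and 56050 at 8 h, where replicate 2 stood well above replicate 1. The log2 fold change was 0.22 (standard error 0.074, edgeR adjusted p = 0.0264). Leaving out replicate 2 at 8 h gave 0.088 (edgeR adjusted p = 0.289), and leaving out replicate 1 or 2 at 4 h gave edgeR adjusted p of 0.134 and 0.223. With scaling by library size alone it was 0.11 (edgeR adjusted p = 0.232), and after correction for the trend of fold change with abundance it was -0.0099 (edgeR adjusted p = 0.928).

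ACTB (chromosome 7, 5566040 to 5603533, minus strand) and ACTG1 (chromosome 17, 79476439 to 79490873, minus strand) encode the beta and gamma actins of non-muscle cells. ACTB had 61434 and 56433 normalized counts at 4 h against 49058 and 52605 at 8 h. The later libraries were lower, and the log2 fold change was -0.21 (standard error 0.066, edgeR adjusted p = 0.0148). Leaving out replicate 1 at 4 h, the higher of the pair, ended the call (-0.16, edgeR adjusted p = 0.220). ACTG1 had 77236 and 80763 at 4 h against 72120 and 75999 at 8 h, with a log2 fold change of -0.093 (95% interval -0.22 to 0.04, edgeR adjusted p = 0.250). It was called lower with scaling by library size alone (-0.20, edgeR adjusted p = 0.0133) and with the abundance trend corrected (-0.33, edgeR adjusted p = 0.000262). The ratio of ACTG1 to ACTB counts was 1.26 and 1.43 at 4 h against 1.47 and 1.44 at 8 h, so that replicate 1 at 4 h lay below the other libraries.

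TPM1 (chromosome 15, 63334819 to 63364114, plus strand) and TPM4 (chromosome 19, 16177831 to 16213812, plus strand) encode tropomyosins, coiled coils that lie along the filament and control access of myosin and other proteins. TPM1 had 17548 and 16845 normalized counts at 4 h against 15502 and 14598 at 8 h. It fell with a log2 fold change of -0.19 (standard error 0.067, edgeR adjusted p = 0.0280), and the call was lost with DESeq2 (adjusted p = 0.0575). It was also lost when replicate 1 or 2 at 4 h or replicate 2 at 8 h was left out (edgeR adjusted p = 0.193, 0.0922 and 0.0782). TPM4 had 4705 and 4434 at 4 h against 4503 and 4485 at 8 h. Its times overlapped, and its log2 fold change was -0.024 (95% interval -0.17 to 0.12). The other tropomyosin genes moved in opposite directions, TPM2 rising from 9642 ± 116 to 12132 ± 1128 (SD, n = 2 each; log2 fold change 0.33, edgeR adjusted p = 0.00123) and TPM3 falling from 1915 ± 90.9 to 1431 ± 55.9 (SD, n = 2 each; -0.42, edgeR adjusted p = 0.000364). The 4 tropomyosin genes together held 33663 and 32982 normalized counts at 4 h against 32809 and 33404 at 8 h, with the times overlapping. Within that total, TPM1 made up 52.1% and 51.1% at 4 h against 47.2% and 43.7% at 8 h, and TPM2 made up 28.4% and 29.5% and then 34.5% and 38.7%. These shares are of counts and are not corrected for length.

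MYL9 (chromosome 20, 35169900 to 35179850, plus strand), TAGLN (chromosome 11, 117070086 to 117078180, plus strand) and CNN1 (chromosome 19, 11649582 to 11661138, plus strand) are contractile genes. They encode a regulatory light chain of myosin II, transgelin and calponin 1, the latter pair binding actin filaments. MYL9 had 17402 and 16836 normalized counts at 4 h against 18555 and 19247 at 8 h, with a log2 fold change of 0.14 (95% interval 0.01 to 0.28, edgeR adjusted p = 0.0909). TAGLN had 26028 and 25973 at 4 h against 29079 and 27611 at 8 h, with a log2 fold change of 0.12 (95% interval -0.01 to 0.26, edgeR adjusted p = 0.132). Both 8 h libraries were above both 4 h libraries for each gene, but neither passed the test. MYL9 passed without replicate 1 at 8 h (edgeR adjusted p = 0.0357) and TAGLN without replicate 2 at 8 h (edgeR adjusted p = 0.0414), and both changed sign, to -0.054 and -0.084, with the abundance trend corrected. CNN1 was at the other end of the range, with 32 and 33 raw counts at 4 h against 51 and 36 at 8 h. Its log2 fold change of 0.73 had a wide 95% interval, 0.16 to 1.30 (edgeR adjusted p = 0.0413). The call was lost in DESeq2 (adjusted p = 0.215), with scaling by library size alone (edgeR adjusted p = 0.0775), and without replicate 1 or 2 at 4 h or replicate 1 at 8 h (edgeR adjusted p = 0.187, 0.150 and 0.169).

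**Figure D2:**
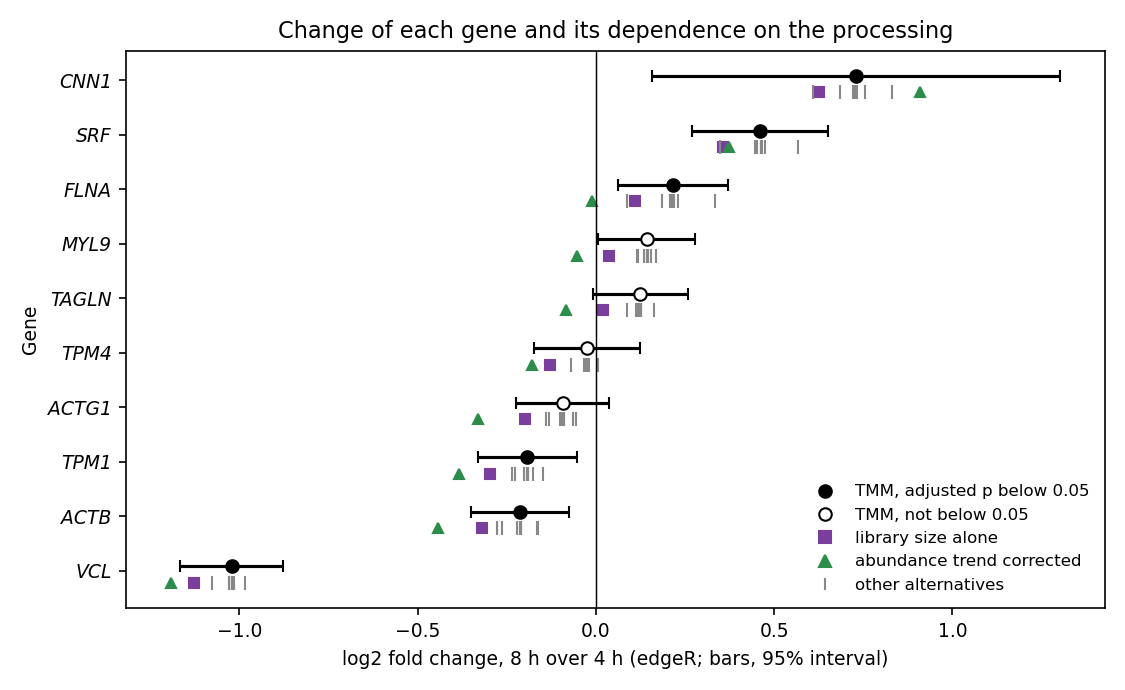
The log2 fold change from 4 h to 8 h for each gene (circles, filled when the adjusted p is below 0.05) with its 95% interval, and below each circle the values of the alternatives (square, library size alone; triangle, abundance trend corrected; ticks, others). VCL and SRF stay on their side of 0 in every analysis, while FLNA, MYL9 and TAGLN move below 0 when the abundance trend is corrected.

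Fold change also varied with abundance. Of the 10 genes, 9 were among the 2512 most abundant genes by mean log2-CPM, CNN1 being the exception. Of those 2512 genes, 39.3% were higher and 14.8% lower, with a median log2 fold change of 0.12. The fitted trend of fold change with abundance was between 0.16 and 0.24 at the abundance of the 8 most highly expressed of the genes, 0.09 at that of SRF and -0.18 at that of CNN1. Without TMM, by library size only, the median over all genes moved to -0.11 and gave 1697 genes higher and 3300 lower, in place of 2508 and 2371. ACTB, TPM1 and VCL were lower under each of these scalings, and SRF and CNN1 were higher under each. With the trend correction FLNA, MYL9 and TAGLN changed sign, to values that did not pass (edgeR adjusted p = 0.928, 0.543 and 0.328).

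**Figure D3:**
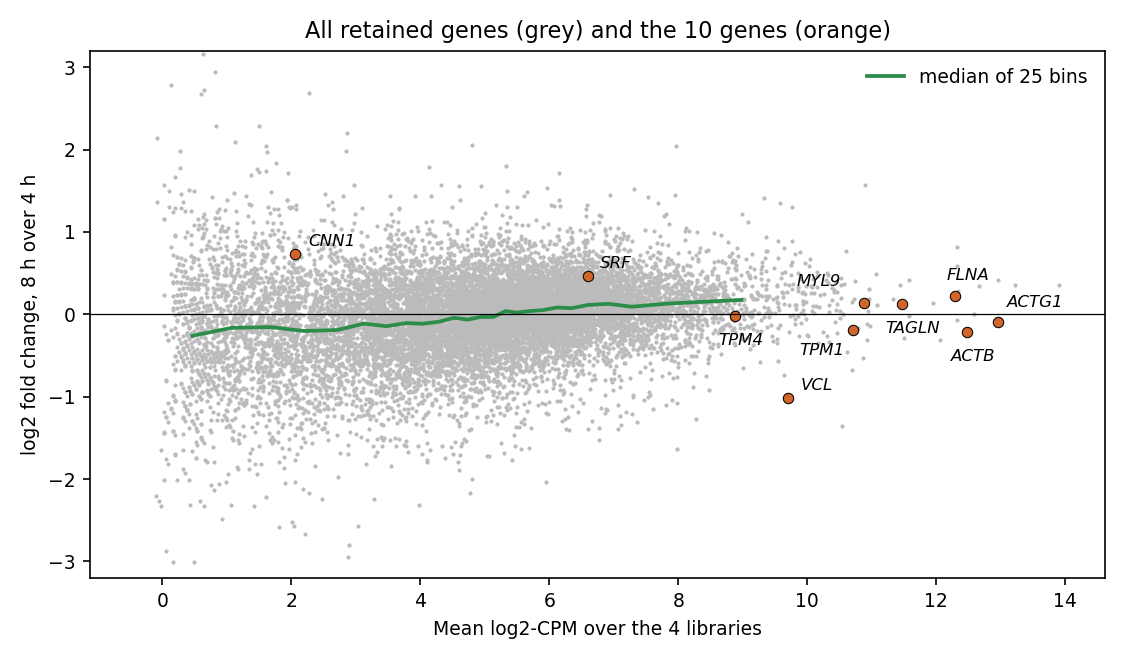
The log2 fold change against mean log2-CPM for all 12559 genes (grey), with the 10 genes in orange and the median of 25 bins of equal gene number as a green line. 3 genes lie outside the vertical axis. The line rises with abundance, ACTB, ACTG1, TPM1 and VCL lie below its right-hand end, and CNN1 is the one gene of the 10 at low abundance.

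Levels can be compared between genes only per length. As normalized CPM per kilobase of canonical transcript at 4 h, ACTG1 (4290 ± 135, SD, n = 2) and ACTB (3390 ± 203) were highest, followed by TPM1 (1473 ± 42.6), TAGLN (716 ± 1.07), MYL9 (640 ± 14.99) and FLNA (545 ± 13.98). VCL (203 ± 8.23) and TPM4 (192 ± 8.07) did not differ beyond their spread at 4 h on this length. At 8 h VCL was at 100.1 ± 0.78, below TPM4 at 189 ± 0.53. SRF was at 19.3 ± 2.16 and then 26.5 ± 0.35, above CNN1 only, which was lowest at 2.04 ± 0.059 and then 3.37 ± 0.37. With the longest annotated transcript instead, TPM1 was at 453 at 4 h, below TAGLN, MYL9 and FLNA, and VCL (140 ± 5.66) was above TPM4 (97.3 ± 4.08). For TAGLN both lengths are 3786 bases, so this change of length does not test its level.

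These levels are limited by what the mapping could count. Reads of 75 bases were aligned without gaps and kept when they had a single genomic position, so starts that cross a splice junction or match elsewhere give no count. On GRCh37, taking another match to mean at most 2 mismatches, the countable share of read starts on the canonical transcript was 93.0% for MYL9 and 89.3% for SRF. It was 55.7% for ACTB, 67.1% for ACTG1, 43.3% for TPM1 and 26.3% for TPM4. For TPM1 the loss was at junctions alone, whereas of the 1900 starts of TPM4 that lie within 1 exon, 631 had no other match. Per kilobase of countable starts, ACTB (6345 ± 381, SD, n = 2) and ACTG1 (6650 ± 210) no longer differed beyond their spread at 4 h. On that scale TPM4 (755 ± 31.7) was well above VCL (295 ± 11.95) at 4 h, and FLNA (926 ± 23.8) was above MYL9 (708 ± 16.6), so the order of these genes depends on the length used. The same rules held in every library. Of the exon bases of TAGLN, 2498 are shared with another annotated entry on the same strand, which the libraries do not list. TAGLN shares 2233 exon bases with PCSK7 on the opposite strand. Whether counting used the strand is not given in the sources used here, so reads of these genes may not be separated, and PCSK7 fell from 444 to 354 mean normalized counts (edgeR adjusted p = 0.0251).

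**Figure D4:**
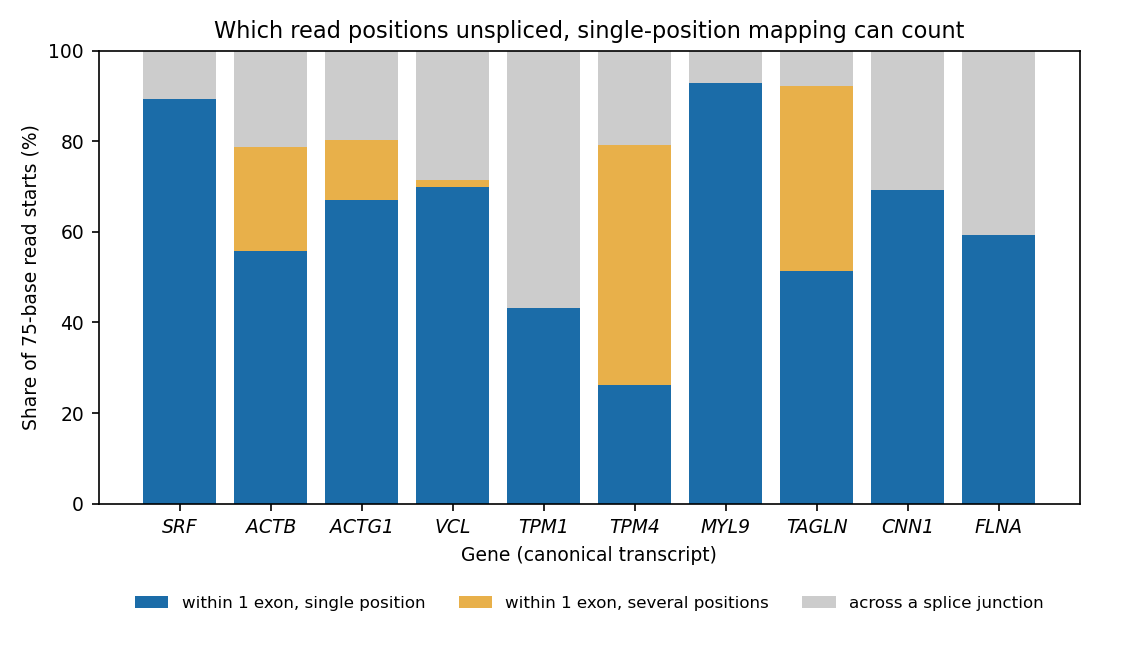
Share (%) of the possible 75-base read starts on each canonical transcript that lie within 1 exon at a single genomic position (blue), within 1 exon but matching several positions (yellow), or across a junction (grey). TPM4 has the smallest countable share, 26.3%, and MYL9 the largest, 93.0%.

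The rest of the pathway was read from 5 lists. Among 22 regulators of SRF activity, 21 were tested, and 5 were higher and 3 lower, beside 20.0% and 18.9% of all genes, with a median log2 fold change of 0.028. FHL2, a LIM-domain protein that binds SRF, rose from 8033 ± 620 to 12017 ± 807 (SD, n = 2 each; log2 fold change 0.58, edgeR adjusted p = 5.06e-06). ELK1, a ternary complex factor, rose from 524 ± 24.2 to 761 ± 6.61 (SD, n = 2 each; 0.54, edgeR adjusted p = 0.000141). DIAPH3, a formin that nucleates filaments, fell from 566 ± 36.1 to 290 ± 18.9 (SD, n = 2 each; -0.96, edgeR adjusted p = 1.32e-06). The others called were ELK4, ARHGEF2 and PPP1R12A, higher, and ROCK2 and DIAPH1, lower. The co-activators themselves did not pass, MRTFA with a log2 fold change of 0.22 (edgeR adjusted p = 0.103) and MRTFB with -0.22 (edgeR adjusted p = 0.189), and MYOCD had 1 count in the 4 libraries.

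Of 26 other structural targets of MRTF and SRF, all were tested, and 5 were higher, 4 lower and 17 not called. Of all genes, 20.0% were higher and 18.9% lower. All of the targets but FHL1 were among the 2512 most abundant genes, of which 39.3% were higher and 14.8% lower. The median log2 fold change was 0.033 over the targets and 0.12 over those abundant genes. FERMT2, which encodes the integrin activator kindlin-2, rose from 1691 ± 189 to 2362 ± 70.2 (SD, n = 2 each; log2 fold change 0.48, edgeR adjusted p = 0.000158). LIMA1, an actin-bundling protein, rose from 1156 ± 33.8 to 1476 ± 60.9 (SD, n = 2 each; 0.35, edgeR adjusted p = 0.00179), and TPM3 was the largest fall. Values of 3 partners of vinculin at adhesions, named after their values were seen, were as follows. TLN1 (talin) had a log2 fold change of 0.054, ZYX (zyxin) -0.027, and ACTN1 (alpha-actinin) -0.25, of which only the last passed (edgeR adjusted p = 0.00564). ACTA2, the smooth muscle actin gene, was at 13820 ± 447 and 14164 ± 576 (SD, n = 2 each), a log2 fold change of 0.036 that did not pass.

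The immediate-early targets that SRF serves with the ternary complex factors ran from -2.57 to 1.32 in log2 fold change. Of 12, 11 were tested, and 2 were higher and 5 lower, beside the same 20.0% and 18.9%, with a median of -0.15. EGR1, a zinc-finger transcription factor, fell from 3655 ± 28.8 to 1181 ± 164 (SD, n = 2 each; log2 fold change -1.63, edgeR adjusted p = 1.73e-10), and EGR2 and EGR3 fell by 2.57 and 1.32 on the log2 scale from normalized counts below 100 (edgeR adjusted p = 1.02e-05 and 0.000396). NR4A1, a nuclear receptor, rose from 362 ± 47.2 to 907 ± 37.1 (SD, n = 2 each; 1.32, edgeR adjusted p = 9.5e-09). FOS, a subunit of AP-1, rose from 374 ± 33.9 to 931 ± 76.2 (SD, n = 2 each; 1.31, edgeR adjusted p = 8.24e-09).

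Among 28 genes of actin polymerisation, 4 were higher, 3 lower and 21 not called, with a median of 0.010. With TMM these were smaller shares than the 20.0% and 18.9% of all genes. The lower calls were 8 with library size alone and 9 with the abundance trend corrected, beside 3300 and 2313 of all 12559 genes. TMSB4X, whose product sequesters actin monomers, fell from 6015 ± 570 to 3815 ± 642 (SD, n = 2 each; log2 fold change -0.66, edgeR adjusted p = 8.51e-05). WASL, an activator of the Arp2/3 complex, rose from 523 ± 58.1 to 801 ± 68.7 (SD, n = 2 each; 0.61, edgeR adjusted p = 9.68e-05). ACTR2, a subunit of that complex, fell from 2036 ± 145 to 1528 ± 13.3 (SD, n = 2 each; -0.41, edgeR adjusted p = 0.000428). Of 17 paralogs of the 10 genes, 14 were tested, with 3 higher and 3 lower, beside 20.0% and 18.9% of all genes, and a median of -0.0034. Of those 6, all but MYL6 are also among the structural targets. The filamin gene FLNC rose (log2 fold change 0.35, edgeR adjusted p = 0.00072), beside TPM2 and TPM3 above.

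**Figure D5:**
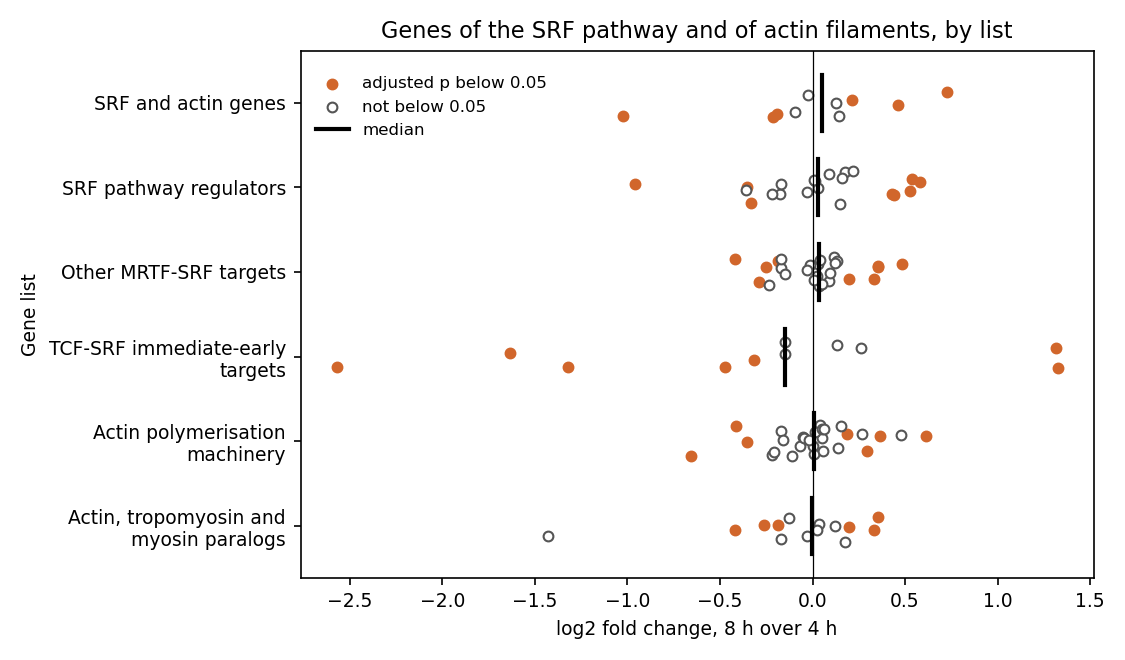
The log2 fold change of every tested gene of the 10 and of the 5 lists (orange, adjusted p below 0.05; open, not below) with the median of each list as a black line. Medians lie between -0.15 and 0.05, and the immediate-early targets run from -2.57 to 1.32.

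Genes with a CArG box were also read as a whole. Of the 167 tested genes with an exact match in a promoter window, 23.4% were higher and 21.0% lower, against 20.1% and 19.3% of the 10016 genes with a window and no match. Among the 4 of the 10 genes with a match, SRF and FLNA were called higher and ACTG1 and TPM4 were not called.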

How the data were processed

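The values come from 4 RNA-seq libraries of polyadenylated RNA (150 ng total RNA, stranded kit, single reads of 75 bases), 2 per time. The authors mapped reads to hg19 with Bowtie 1.2.0, kept those with 1 genomic position, and deposited raw counts per gene, not normalized, with the replicates kept apart. The counting tool, the annotation and the use of strand are not given in the sources used here.

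The 12559 of 23459 genes that exceeded a CPM of 1 in 2 or more libraries were kept, and 8 h was compared with 4 h by edgeR 4.0.16 (quasi-likelihood, robust, TMM, time as the only term; R 4.3.3), adjusted by Benjamini-Hochberg over all kept genes. Standard errors are the log2 fold change divided by the root of F. Alternatives were Limma-Voom (3.58.1), DESeq2 (1.42.0), library size alone, RLE, no filter, a CPM above 2, a replicate block, a lowess correction of the abundance trend, and leaving out each library. With a library left out, the lone one of its time is assumed to vary like the others. Symbols came from RefSeq, positions and transcripts from GENCODE on GRCh37. Named beside the 10 genes were, per list, the 3 largest changes with an adjusted p below 0.05 and a mean of at least 100 at the higher time, and the 5 genes nearest to SRF in pattern. Members and lists were chosen with earlier results of these data known. The fits were tested on simulated counts. Some carried only a trend of fold change with abundance, and any call on them was counted as false. The fits without the trend correction made such calls and the corrected fit made none. The correction is built to remove such a trend, so this outcome does not show which scaling suits these data. Replicates were not copies: their chi-square was 2.67 (4 h) and 3.84 (8 h) per degree of freedom. With 2 libraries per time, precision rests on the spread shared over genes.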

Additional observations from a re-analysis of the deposited data

How the results depend on the processing

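SRF and VCL passed in all 12 alternatives, and ACTB in 11. DESeq2 called 1503 genes lower and 1 of the 10 genes higher, and library size alone also called 1 higher. The next counts are in the order regulators, other MRTF-SRF targets, polymerisation genes and paralogs, of which 21, 26, 28 and 14 were tested. Lower calls were 6, 8, 8 and 5 with library size alone, beside 3300 of all 12559 genes. They were 5, 9, 9 and 5 with the abundance trend corrected, beside 2313 of all genes. The trend correction called 3 other MRTF-SRF targets and 1 paralog higher, beside 2269 of all genes. It turned MYL9 to -0.054, TAGLN to -0.084 and FLNA to -0.0099, none of which passed. Higher polymerisation genes were 2 with DESeq2 and 2 with library size alone, beside 1800 and 1697 of all genes. Per countable start, ACTG1 over ACTB at 4 h was 1.05 in place of 1.27, a scale chosen after seeing the data. The cause was not tested.

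With 1 library left out, called genes ran from 1562 to 2534 (higher) and from 1503 to 2327 (lower), the lowest without replicate 1 at 4 h. The 10 genes had 1 to 3 calls in each direction. Regulators had 1 to 4 lower, other MRTF-SRF targets 3 to 7 higher and 1 to 6 lower, polymerisation genes 2 to 5 higher and 3 to 5 lower, and paralogs 1 to 4 lower. TPM4 ran from -0.071 to 0.0059.

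With the replicate number as a block, 2827 genes were higher and 2664 lower, and the 10 genes had 3 calls each way. Deviations of same-numbered libraries correlated at 0.05 over all genes and 0.11 over the 9396 genes averaging 100 counts or more, and the labels name no batch or culture that a number stands for, so the number was not taken to pair the libraries. Depth limits CNN1, which had 32 to 51 raw counts per library.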

Other observations

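The genes whose pattern over the 4 libraries was nearest to that of SRF, by Euclidean distance of gene-centred log2-CPM among 9370 genes averaging 100 normalized counts or more, were TGIF2 (0.025), AK3 (0.029), FERMT2 (0.032), DYRK1A (0.034) and SLC39A10 (0.035). They were picked for this closeness, so their log2 fold changes, between 0.43 and 0.48, were near that of SRF (0.46) by selection. Of the other 9 genes, CNN1 was nearest to SRF (0.33) and VCL farthest (1.502). FLNA (0.34), MYL9 (0.35) and TAGLN (0.38) were almost as near as CNN1. The level of CNN1 was below the minimum of 100 used in the search above, so its pattern is imprecise.

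The 10 genes took 2.82% and 2.78% of each 4 h library's counts, against 2.45% and 2.56% of each 8 h library's, most of them on ACTG1, ACTB and FLNA. These are shares of raw counts, without TMM. As TMM-normalized counts, the 10 genes summed to 256697 to 260889 at 4 h and 242417 to 257013 at 8 h, with the times overlapping. LMOD1, which encodes leiomodin 1, an actin nucleator of smooth muscle, fell from 1053 ± 24.3 to 687 ± 89.8 normalized counts (SD, n = 2 each; log2 fold change -0.61, edgeR adjusted p = 4.67e-05). KRT18, an epithelial keratin gene, fell from 3366 ± 216 to 2370 ± 34.0 (SD, n = 2 each; -0.51, edgeR adjusted p = 3.47e-05), while its partner KRT8 was at 3485 ± 156 and 3557 ± 315 (SD, n = 2 each).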
